A study of Arabidopsis thaliana with 18 samples.

Results

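CML37 (AT5G42380), CML38 (AT1G76650) and AT1G76640 are 3 Arabidopsis genes of the calmodulin-like group, taken by locus: the rule that names them uses no expression value, although it was set with earlier results of these data known. They are 3 of the 13286 genes that the platform annotation and RefSeq paired with a probe set of their own, and each was read by 1 probe set. The pairing covered 13436 of the 22746 probe sets tested. A gene called measured here is one in that pairing, and other genes may still have probe sets on the array. RefSeq lists the synonym calmodulin like 39 for both AT1G76640 and CML37, so AT1G76640 is called by its locus here. CML38 and AT1G76640 follow each other on chromosome 1 with 0 annotated loci between them in the RefSeq table, whereas CML37 lies on chromosome 5. Whether the probe sets of the neighbouring pair also bind each other's transcripts was not tested.

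The measurements came from 18 Affymetrix ATH1 arrays, which read transcript abundance with probe sets and gave log2 expression values in the table that the authors deposited. All plants were wild type of the accession Columbia-0 and grew on rock wool in hydroponic medium, and roots and leaves were each represented by 3 groups of 3 biological replicates. The day 11 plants were taken as those returned to basal medium for 1 day after the stress, the osmotic plants (labelled day 10) had received 3 h of mannitol at 0.3 M, and the mock plants (also labelled day 10) had none. The treatment description puts the plants at an age of 30 days, which was not reconciled with the day labels. Any day 11 difference includes 1 more day of growth and a transfer between media, and the handling of the plants cannot be told apart from the treatments. No group was labelled as touched, so the touch response for which the genes are known was not tested here.

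Calmodulin-like proteins are small calcium sensors. A stimulus such as touch, wounding, cold or a change of water potential raises the calcium ion level in the cytosol, calcium ions bind the EF hands of the sensor, and the sensor changes shape and binds other proteins. Unlike the enzymes of the calcium-dependent kinase families they carry no catalytic domain of their own, and many of their genes are themselves switched on within minutes of a stimulus. In Arabidopsis, CML37 is known from defence against herbivores and from drought responses linked to abscisic acid, CML38 from low-oxygen responses and root growth, and the CML39 protein from seed and early seedling development.

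The arrays matched their organ labels. Each of the 3 measured leaf markers and each of the 4 measured root markers had values in its own organ above every value in the other, for example 5.09 to 6.92 in roots and 13.16 to 13.53 in leaves for RCA, the rubisco activase gene, and 9.32 to 10.09 in roots and 4.62 to 5.23 in leaves for the root hair expansin EXPA7. Array medians lay between 6.55 and 6.69, and lower quartiles between 4.27 and 4.50. A value near the lower quartile was not separated from background here, and the number of arrays is what limits the precision. In such organ samples, fewer cells that express a gene and less RNA per cell cannot be told apart.

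CML38 was high in 3 of the 6 groups: osmotic roots, osmotic leaves and day 11 leaves. Its day 11 roots read 6.50, 6.30 and 7.11. In osmotic roots its arrays read 8.55, 9.57 and 8.50, against 6.04, 6.39 and 6.82 in mock roots. The osmotic root arrays lay above all others of that organ, while the day 11 and mock root arrays overlapped. In leaves, CML38 read 9.35, 9.68 and 9.17 at day 11, 8.45, 8.14 and 9.48 in osmotic plants, and 7.25, 7.87 and 7.91 in mock plants. The leaf groups under stress and after it overlapped each other, and both lay above mock leaves on every array.

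CML37 had the same groups on top, at other spacings. Its day 11 roots read 4.26, 4.36 and 4.54. It read 6.34, 7.30 and 6.57 in osmotic roots, against 4.30, 4.35 and 4.76 in mock roots. The day 11 and mock root arrays overlapped and lay close to the lower quartile of the arrays, so the size of its root changes may be a lower bound. In leaves it read 6.51, 8.13 and 6.89 at day 11, 6.89, 7.53 and 8.02 in osmotic plants, and 6.57, 5.95 and 6.19 in mock plants. The lowest day 11 leaf array lay within the range of mock leaves, so those 2 groups overlapped, whereas osmotic and mock leaves did not. The 3 day 11 leaf arrays of CML37 spread widely (SD 0.847, n = 3), wider than 99.4% of probe sets in that group.

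AT1G76640 had higher means in roots than in leaves under each treatment. Its day 11 roots stood at 5.9995, 6.04 and 6.15. It read 7.63, 7.77 and 7.15 in osmotic roots, against 5.75, 5.51 and 6.09 in mock roots. The osmotic root arrays lay above both other root groups, which overlapped each other. In leaves it read 4.90, 5.02 and 4.83 at day 11, 4.94, 5.99 and 5.19 in osmotic plants, and 4.92, 4.47 and 4.64 in mock plants. The osmotic leaf arrays lay above the mock leaf arrays, but their lowest array exceeded the highest mock array by little, and 1 mock array was within the range of the lower quartiles.

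**Figure D1:**
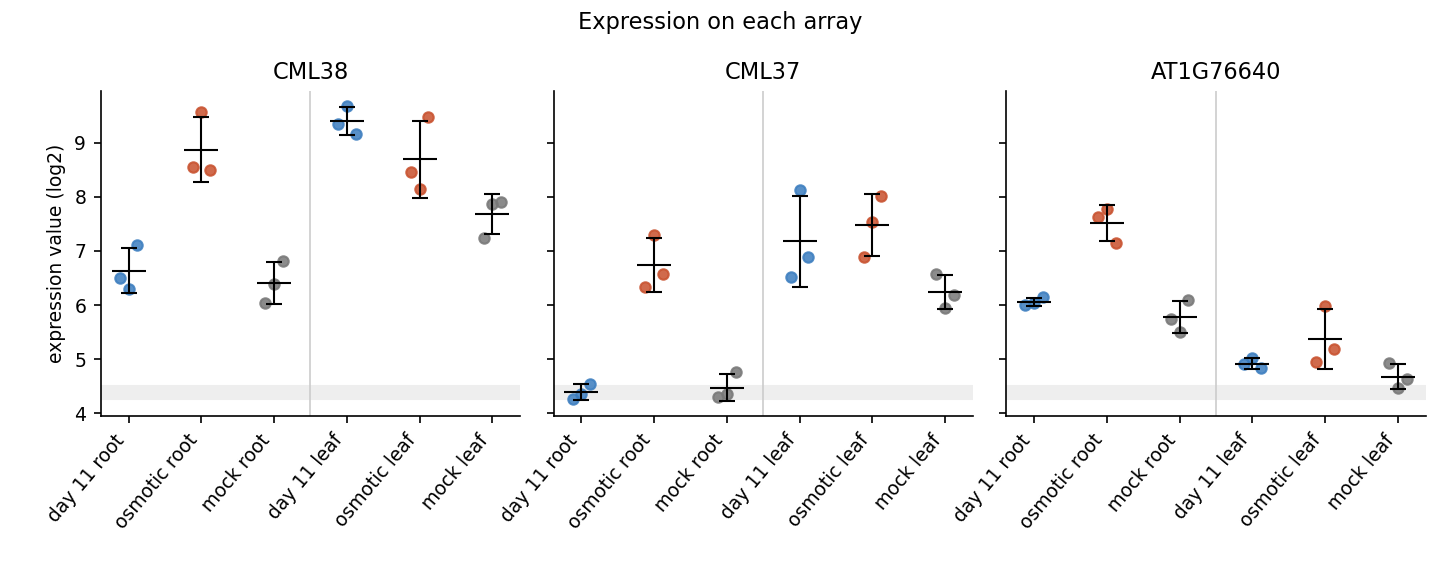
Expression values (log2, vertical axis) of CML38, CML37 and AT1G76640 on each of the 18 arrays, by group, with roots left of the grey line and leaves right of it. Points are arrays, the black bar and whiskers are the mean ± SD (n = 3), and the grey band spans the lower quartiles of the arrays (4.27 to 4.50); the osmotic root arrays of each gene lie above its day 11 and mock root arrays.

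Ordered by group mean, CML38 ran from day 11 leaves (9.40 ± 0.26, SD, n = 3 here and below) through osmotic roots (8.88 ± 0.60), osmotic leaves (8.69 ± 0.70), mock leaves (7.68 ± 0.37) and day 11 roots (6.63 ± 0.42) to mock roots (6.42 ± 0.39). Its first 3 groups overlapped their neighbours in that order, as did the last 2, and gaps without overlap stood on either side of mock leaves. CML37 ran from osmotic leaves (7.48 ± 0.57) through day 11 leaves (7.18 ± 0.85), osmotic roots (6.74 ± 0.50) and mock leaves (6.24 ± 0.31) to mock roots (4.47 ± 0.25) and day 11 roots (4.39 ± 0.14). Only the step between mock leaves and mock roots separated neighbours in the order of CML37. AT1G76640 ran from osmotic roots (7.52 ± 0.33) through day 11 roots (6.06 ± 0.08), mock roots (5.78 ± 0.29), osmotic leaves (5.37 ± 0.55) and day 11 leaves (4.92 ± 0.10) to mock leaves (4.68 ± 0.23), and only osmotic roots stood clear of the next group. Among all probe sets of the same array, CML38 lay at percentiles of 79.1, 89.8 and 78.2 in osmotic roots, against 42.7, 46.4 and 51.7 in mock roots.

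All 3 genes rose in osmotic against mock roots, where 10.6% of all 22746 probe sets rose. Each change given here subtracts the mock mean (or the other group named) in log2 units and carries the SE of limma, fitted over all probe sets and arrays; a change passed when its Benjamini-Hochberg adjusted p was under 0.05. CML38 rose 5.51-fold (2.46 ± 0.33, adjusted p = 2e-05), CML37 4.80-fold (2.26 ± 0.35, adjusted p = 7.7e-05) and AT1G76640 3.33-fold (1.74 ± 0.23, adjusted p = 1.5e-05). Of all probe sets, 0.857% had a larger change than CML38, 1.06% than CML37 and 1.89% than AT1G76640. All 3 calls held without any 1 of the 18 arrays, and the osmotic arrays of each gene lay above its mock arrays, as for 18% of all probe sets. With 3 arrays against 3, a two-sided exact permutation test of a single gene cannot go below p = 0.1, which is the value each of these differences gave.

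In leaves all 3 genes rose under mannitol too, by smaller estimates than in roots. CML37 rose 2.37-fold (1.24 ± 0.35, adjusted p = 0.015), CML38 2.02-fold (1.02 ± 0.33, adjusted p = 0.036) and AT1G76640 1.62-fold (0.70 ± 0.23, adjusted p = 0.037), where 8.62% of all probe sets rose and 14.3% had every osmotic array above every mock array. These calls rested on single arrays. Without osmotic leaf replicate 3, CML38 stood at 0.62 (adjusted p = 0.21) and CML37 at 0.97 (adjusted p = 0.085), and without osmotic leaf replicate 2, AT1G76640 stood at 0.39 (adjusted p = 0.24) and CML37 at 1.22 (adjusted p = 0.051). Leaving out a mock leaf array also ended calls. CML38 lost its call without mock leaf replicate 1, 2 or 3 (adjusted p = 0.14, 0.057 and 0.054), AT1G76640 without replicate 2 or 3 (adjusted p = 0.14 and 0.1) and CML37 without replicate 2 (adjusted p = 0.069). When the fit was limited to those 2 groups, CML38 (adjusted p = 0.07) and AT1G76640 (adjusted p = 0.11) did not pass.

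Whether the response to mannitol was larger in roots than in leaves was tested as an interaction, root change minus leaf change. It was 1.45 ± 0.47 for CML38 (adjusted p = 0.044), 1.04 ± 0.32 for AT1G76640 (adjusted p = 0.036) and 1.02 ± 0.49 for CML37 (adjusted p = 0.18, 95% confidence interval -0.0048 to 2.05). The larger root response of CML38 and AT1G76640 passed, where 7.77% of all probe sets passed with a positive interaction. That share may include probe sets that fell more in leaves than in roots. Both calls were close to the threshold. Each was lost in 8 of 18 fits with 1 array left out, with adjusted p-values of up to 0.11 for CML38 and 0.095 for AT1G76640. With only the 4 groups concerned in the fit, they stood at 0.066 and 0.074. AT1G76640 averaged 4.68 in mock leaves, close to the lower quartiles of the arrays (4.27 to 4.50). Its leaf change may therefore be a lower bound, and its organ difference may be overstated.

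In the step from stress to 1 day after the return to basal medium, roots and leaves differed for CML38 and CML37. In roots all 3 genes were lower at day 11 than under stress, where 8.85% of all probe sets fell and 15.8% had every day 11 array below every osmotic array. CML37 fell by 2.35 ± 0.35 on the log2 scale (adjusted p = 7.2e-05), CML38 fell by 2.24 ± 0.33 (adjusted p = 7.5e-05) and AT1G76640 fell by 1.46 ± 0.23 (adjusted p = 0.00014), and each call held without any 1 array. Set against mock roots, day 11 roots differed by 0.22 ± 0.33 for CML38 (adjusted p = 0.75, 95% confidence interval -0.48 to 0.92), by -0.08 ± 0.35 for CML37 (adjusted p = 0.92, -0.81 to 0.64) and by 0.28 ± 0.23 for AT1G76640 (adjusted p = 0.51, -0.20 to 0.76). None of the 3 passed in limma, where 7.65% of all probe sets passed in either direction. Nor did any have an unadjusted limma p under 0.05, a threshold at which the share of all probe sets was not counted.

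In leaves none of the 3 genes passed between day 11 and osmotic plants, where 17.1% of all probe sets did. Between day 11 and osmotic leaves CML38 stood at 0.71 ± 0.33 (limma, unadjusted p = 0.047, adjusted p = 0.17), CML37 at -0.30 ± 0.35 (adjusted p = 0.63) and AT1G76640 at -0.45 ± 0.23 (adjusted p = 0.2). Without osmotic leaf replicate 3, the highest of its group for CML38, day 11 leaves were above osmotic leaves by 1.104 (adjusted p = 0.025). CML38 was 3.30-fold higher in day 11 leaves than in mock leaves (1.72 ± 0.33, adjusted p = 0.015), in a comparison where 0.721% of all probe sets were higher (1.09% in either direction) and 9.55% had every day 11 array above every mock array. Its change was the 18th highest of 22746. The call was lost on leaving out either of 2 arrays: mock leaf replicate 1, without which it stood at 1.51 (adjusted p = 0.08), and day 11 leaf replicate 2, without which it stood at 1.58 (adjusted p = 0.055). CML37 stood at 0.94 ± 0.35 (adjusted p = 0.21, 95% confidence interval 0.21 to 1.67), passed with array weights (adjusted p = 0.046), and stood at 0.463 without day 11 leaf replicate 2 (adjusted p = 0.57). AT1G76640 stood at 0.24 ± 0.23 (adjusted p = 0.67).

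**Figure D2:**
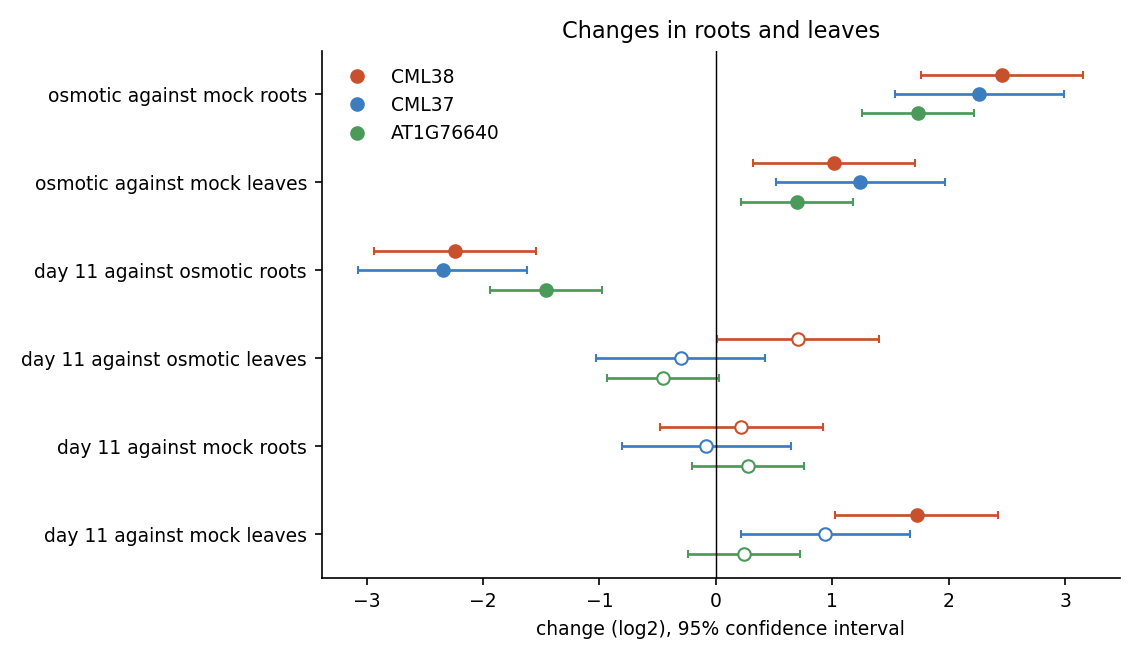
Changes of the 3 genes in 6 comparisons (log2, horizontal axis) with 95% confidence intervals from the limma fit; filled points passed an adjusted p of 0.05 and open points did not. The root changes between day 11 and osmotic plants lie below 0 for all 3 genes, whereas the leaf changes of the same step have open points on both sides of 0.

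The difference between the organs in the step from stress to day 11 was tested directly too. It was -2.95 ± 0.47 for CML38 (adjusted p = 0.00041) and -2.05 ± 0.49 for CML37 (adjusted p = 0.0095). In that comparison 6.09% of all probe sets passed with a negative difference. Both calls held without any 1 array. Of all probe sets, 0.154% had a lower difference than CML38. AT1G76640 was at -1.004 ± 0.32 and missed the threshold (adjusted p = 0.05003). It passed after quantile normalisation (adjusted p = 0.047), after centring of each array (0.046) and without the dim probe sets (0.043). The root minus leaf difference of the day 11 response against mock did not pass for CML38 (-1.50 ± 0.47, limma, unadjusted p = 0.0049, adjusted p = 0.11), CML37 (-1.02 ± 0.49, adjusted p = 0.32) or AT1G76640 (0.04 ± 0.32, adjusted p = 0.97). Without day 11 leaf replicate 2 the value of CML37 was -0.547. In that comparison 2.29% of all probe sets passed in either direction. For CML38 it passed with array weights (adjusted p = 0.037) and with only the groups concerned in the fit (0.029).

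The organs also differed without stress, and the genes split in direction. Mock roots were below mock leaves for CML37 (-1.77 ± 0.35, adjusted p = 0.00022) and CML38 (-1.26 ± 0.33, adjusted p = 0.003), where 23% of all probe sets were lower in roots. AT1G76640 was higher in mock roots by 1.11 ± 0.23 (adjusted p = 0.00036), where 33.5% were higher. Osmotic roots and osmotic leaves differed by 0.18 ± 0.33 for CML38 (adjusted p = 0.67) and by -0.74 ± 0.35 for CML37 (adjusted p = 0.077), and neither passed, whereas AT1G76640 was 4.43-fold higher in osmotic roots (2.15 ± 0.23, adjusted p = 1.3e-07). In that comparison 32.7% of probe sets were higher in roots. At day 11 the roots were lower than the leaves by 6.80-fold for CML38 (-2.77 ± 0.33, adjusted p = 6.5e-07) and 6.92-fold for CML37 (-2.79 ± 0.35, adjusted p = 1e-06), where 24.6% were lower, and AT1G76640 was higher in roots by 1.14 ± 0.23 (adjusted p = 0.00025), where 33.8% were higher.

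CML37 and CML38 ran together across the arrays, and AT1G76640 ran with neither across the groups. Over the 18 arrays, which fall into 6 groups and share the organ difference, Pearson's r was 0.905 between CML37 and CML38 (Spearman 0.876), -0.103 between CML37 and AT1G76640 (Spearman -0.131) and -0.002 between the neighbours CML38 and AT1G76640 (Spearman -0.086). After the group mean was subtracted from each array, r was 0.549 for CML37 with CML38 (Spearman 0.414), 0.427 for CML37 with AT1G76640 (Spearman 0.488) and -0.001 for CML38 with AT1G76640 (Spearman -0.007). These are descriptions of arrays that share a group, not tests. Osmotic root replicate 2 was above its group mean by 0.70 for CML38 and 0.56 for CML37, and osmotic leaf replicate 3 by 0.79 and 0.54. Osmotic root replicate 2 also had the widest deviations from its group over all probe sets (SD 0.226, against 0.135 to 0.216 on the other arrays), and its part in these values was tested only by leaving it out, which left the osmotic root changes at 2.11 for CML38 and 1.98 for CML37.

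**Figure D3:**
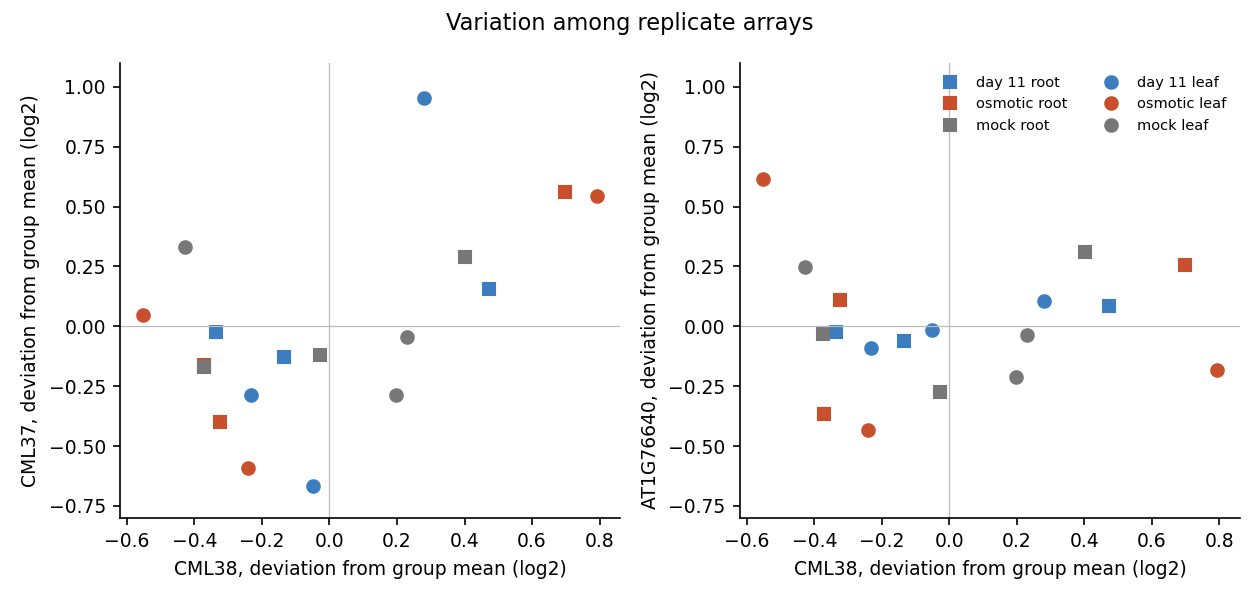
Deviation of each array from its group mean (log2), with CML38 on the horizontal axes and CML37 (left) or AT1G76640 (right) on the vertical axes; squares are roots, circles leaves, colours the treatment. The 18 points rise together for CML37 (r = 0.549) and show no slope for AT1G76640 (r = -0.001).

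The spread among replicates was wide for these genes. In osmotic roots, 98.2% of probe sets had a smaller SD than CML38, 96.7% a smaller one than CML37 and 87.4% a smaller one than AT1G76640, and in osmotic leaves the shares were 98.7%, 97.1% and 96.7%. In day 11 roots AT1G76640 was tight, with an SD below those of most probe sets (23.5% were smaller). Its day 11 leaves were tight too (29.9%).

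The loci on either side of the CML38 and AT1G76640 pair did not pass in the same comparisons. In osmotic against mock roots, AT1G76630 stood at -0.39 ± 0.17 (adjusted p = 0.11) and AT1G76660 at 0.13 ± 0.13 (adjusted p = 0.51). In leaves the flanking loci stood at -0.20 ± 0.17 (adjusted p = 0.48) and 0.16 ± 0.13 (adjusted p = 0.45), and they did not pass in the day 11 against osmotic comparison of either organ.

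Of 54 other genes of the calmodulin and calmodulin-like family on the list, 32 were paired with a probe set of their own. In osmotic against mock roots, 3 of these 32 rose (9.38%, beside 10.6% of all probe sets) and 4 fell (12.5%, beside 13.7%), with a median change of -0.16 against -0.01 over all probe sets. AT3G01830 rose most, by 2.81 ± 0.34 (adjusted p = 6e-06), followed by CML23 at 0.79 ± 0.22 (adjusted p = 0.013) and AT5G17470 at 0.35 ± 0.08 (adjusted p = 0.0037), whose level of 4.02 in osmotic roots lay below the lower quartile of every array. The 4 that fell were AT1G24620 (-1.30 ± 0.21, adjusted p = 0.00017), AT1G73630 (-0.71 ± 0.21, adjusted p = 0.021), AT2G41090 (-0.55 ± 0.15, adjusted p = 0.011) and AT1G12310 (-0.44 ± 0.10, adjusted p = 0.0041). AT2G41090 averaged 5.1 in mock roots and 4.555 in osmotic roots, the latter close to the lower quartiles. Among the 35 genes, CML38, CML37 and AT1G76640 held places 2, 3 and 4 behind AT3G01830. By the change in osmotic against mock leaves they held places 3, 2 and 7. With array weights the counts were 5 higher and 9 lower, and without mock root replicate 3 the count of those lower was 2.

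In osmotic leaves 6 of the 32 relatives rose (18.8%, beside 8.62% of all probe sets) and 3 fell (9.38%, beside 12%), with a median of 0.13 against -0.002 over all probe sets. The risers were AT3G01830 (1.38 ± 0.34, adjusted p = 0.0074), AT1G21550 (0.83 ± 0.25, adjusted p = 0.024), AT5G39670 (0.78 ± 0.27, adjusted p = 0.046), AT3G10300 (0.72 ± 0.12, adjusted p = 0.00038), AT3G59440 (0.60 ± 0.16, adjusted p = 0.01) and AT3G25600 (0.60 ± 0.17, adjusted p = 0.018). AT3G59440 averaged 3.86 in osmotic leaves, below the lower quartiles. AT1G73630 (-1.07 ± 0.21, adjusted p = 0.0016), AT3G10190 (-0.56 ± 0.16, adjusted p = 0.019) and AT1G12310 (-0.35 ± 0.10, adjusted p = 0.023) fell. The count of risers was 1 without mock leaf replicate 2, and that of fallers was 1 when mock leaf replicate 3, or else replicate 2 of the osmotic leaves, was dropped and when only those groups were fitted. AT3G01830 was the 1 relative of 32 that rose in both organs, a pattern met by all 3 genes of the set and by 3.43% of all probe sets.

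**Figure D4:**
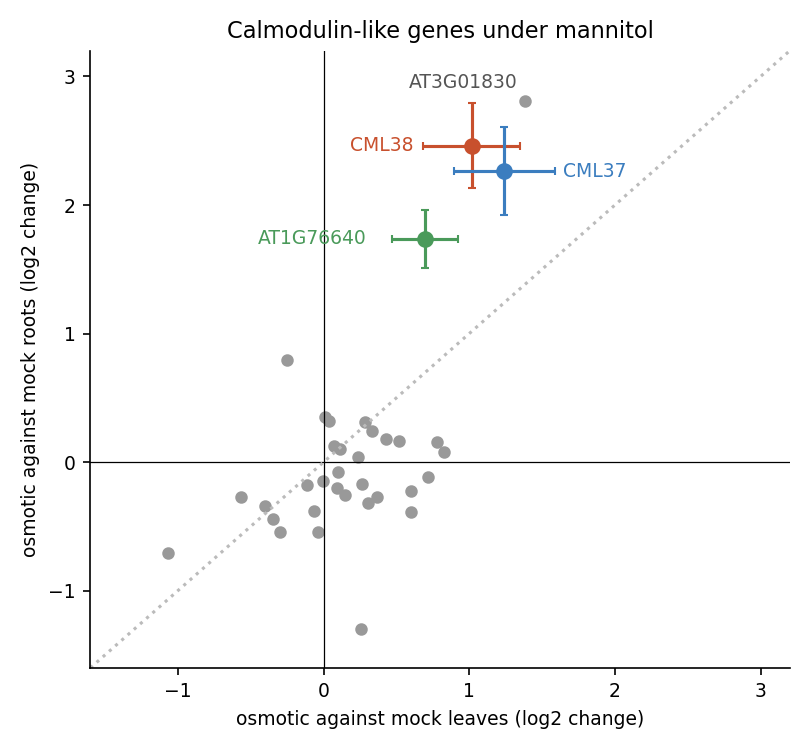
Change under mannitol in leaves (horizontal axis, log2) and in roots (vertical axis, log2) for CML38, CML37 and AT1G76640 (coloured, bars ± SE) and the 32 other measured calmodulin-like genes (grey); the dotted line marks equal changes. The 3 genes and AT3G01830 lie above the line at root changes of 1.74 to 2.81, and the other relatives lie between -1.30 and 0.79 in roots.

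After stress the relatives moved both ways. In day 11 against osmotic roots 5 of 32 relatives rose (15.6%, beside 10.2% of all probe sets) and 2 fell (6.25%, beside 8.85%), among them AT3G01830, which fell by 2.72 ± 0.34 (adjusted p = 1.4e-05). Its root minus leaf difference in that step was -2.05 ± 0.48 (adjusted p = 0.0089). In day 11 against osmotic leaves 4 rose (12.5%, beside 9.13%) and 3 fell (9.38%, beside 7.96%). CML23 rose there by 1.05 ± 0.22 (adjusted p = 0.0029) and CML30 by 0.92 ± 0.18 (adjusted p = 0.0018). The 3 that fell there were AT1G21550 (-0.79 ± 0.25, adjusted p = 0.037), AT3G24110 (-0.66 ± 0.18, adjusted p = 0.018) and CML43 (-0.66 ± 0.16, adjusted p = 0.0081). AT3G24110 averaged 4.51 in osmotic leaves, close to the lower quartiles. CML43 also fell between osmotic and day 11 roots (-0.51 ± 0.16, adjusted p = 0.03). None of the 32 passed between day 11 and mock leaves in limma, where 1.09% of all probe sets passed in either direction. An unadjusted limma p under 0.05 was found for 6 of the 32, and the share of all probe sets at that threshold was not counted. CML23 stood at 0.80 ± 0.22 (adjusted p = 0.093). Between day 11 and mock roots AT3G59440 was higher (0.78 ± 0.16, adjusted p = 0.0054) and AT2G27480 lower (-0.58 ± 0.17, adjusted p = 0.043), 1 of 32 each way, where 7.65% of all probe sets passed in either direction. AT3G59440 averaged 4.07 in mock roots, below the lower quartiles, and 4.85 in day 11 roots.

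Other parts of calcium signalling were thinly covered by the pairing of probe sets with genes, which does not mean that the array lacks them. Of the listed calcineurin B-like proteins and their kinases, calcium-dependent protein kinases, and calcium channels and pumps, 0 were paired with a probe set in the tables used here. Of 8 calmodulin-binding transcription factors 3 were paired. AT1G67310 rose in osmotic roots (0.57 ± 0.12, adjusted p = 0.0019) and osmotic leaves (0.52 ± 0.12, adjusted p = 0.005), AT4G16150 rose in osmotic roots (0.39 ± 0.13, adjusted p = 0.039), and AT3G16940 stood at -0.38 ± 0.14 in roots (adjusted p = 0.052) and 0.39 ± 0.14 in leaves (adjusted p = 0.052). Of 28 other touch- and wound-responsive genes 1 was paired, STZ (AT1G27730), the salt tolerance zinc finger transcription factor. It rose in osmotic roots (1.68 ± 0.19, adjusted p = 2.4e-06) and in osmotic leaves (1.12 ± 0.19, adjusted p = 0.00042). In day 11 against osmotic roots STZ fell by 1.26 ± 0.19 (adjusted p = 8.7e-05), and it was higher in day 11 than in mock leaves by 1.41 ± 0.19 (adjusted p = 0.0011).

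Because CML38 is known from low-oxygen responses, a list of 23 genes induced by low oxygen was examined, 9 of them paired with a probe set. In osmotic roots 2 rose (22.2%) and 2 fell (22.2%), with a median of 0.19, beside 10.6% higher, 13.7% lower and a median of -0.01 over all probe sets. AT4G24110 rose by 0.92 ± 0.27 (adjusted p = 0.019) and AT3G10040, the hypoxia response attenuator HRA1, by 0.63 ± 0.21 (adjusted p = 0.032), while AT5G66985 fell by 2.81 ± 0.22 (adjusted p = 3.1e-08) and AT1G33055 fell by 1.11 ± 0.31 (adjusted p = 0.012). In osmotic leaves none of the 9 passed the limma test in either direction, beside 8.62% of all probe sets higher and 12% lower. Of the 9, 0 had an unadjusted limma p under 0.05, a share that was not counted over all probe sets.

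The genes whose levels ran most like each member were picked by Pearson's r over the 18 arrays among 7508 candidate genes, as a description. For CML38 they were AT1G76600 (r = 0.972), AT4G36500 (0.924), AT3G10930 (0.922), STZ (0.917) and AT5G52050 (0.913). AT1G76600 is separated from CML38 by 4 loci in the RefSeq table of chromosome 1. It averaged 10.81 in day 11 leaves, 10.23 in osmotic leaves and 9.73 in mock leaves. In roots it averaged 8.38 at day 11, 10.24 under stress and 8.10 in mock plants, the order seen for CML38. Within groups its deviations had r = 0.865 with those of CML38 (18 arrays). AT1G76600 was picked by r over these same arrays, so the matching order and this r follow in part from the pick.

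For CML37 the closest were AT5G64870 (r = 0.968), AT2G32140 (0.966), AT3G01830 (0.962), AT1G35210 (0.956) and AT2G24600 (0.955), so that the relative that rose most in osmotic roots also stood among them. AT3G01830 averaged 4.69 in day 11 roots, 7.41 in osmotic roots and 4.60 in mock roots. CML38 itself stood 39th for CML37. For AT1G76640 they were AT3G63050 (r = 0.970), AT5G59490 (0.970), AT1G13195 (0.965), BGLU16 (AT3G60130, 0.962), a beta-glucosidase, and CCR2 (AT1G80820, 0.958), a cinnamoyl-CoA reductase of the lignin pathway. All 5 had their highest mean in osmotic roots, which follows in part from picking them by r with AT1G76640. BGLU16 averaged 8.94 in day 11 roots, 10.68 in osmotic roots and 8.56 in mock roots. No gene was among the closest 5 of more than 1 member.

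**Figure D5:**
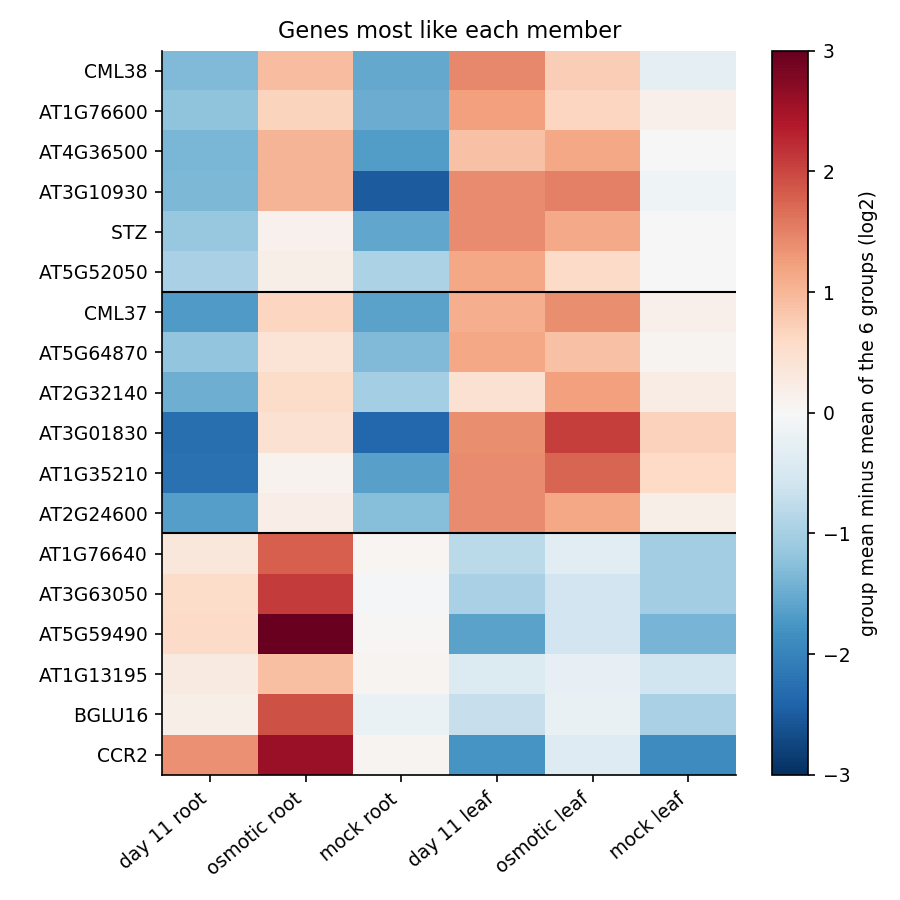
Group means of each member and the 5 genes most like it (rows, grouped by member). Colours show the difference from the mean of the 6 groups (log2). The 5 genes were picked by r over the same arrays, so part of their likeness to the member is built in. CML38 and CML37 themselves have their 3 highest means in osmotic roots, osmotic leaves and day 11 leaves, whereas AT3G01830 and AT1G35210 are higher in mock leaves than in osmotic roots; AT1G76640 and the 5 genes most like it are highest in osmotic roots.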

How the data were processed

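The authors deposited expression as log2 values, with 1 column for each array. How the probes were summarised and normalised is not given in the sources used here. Values ran from 2.38 to 13.9, above 11.1, the natural log of the highest 16-bit intensity, so log2 was taken as their base. Of 22810 probe sets, 64 manufacturer controls were left out. The platform annotation and RefSeq paired 13436 probe sets with 1 gene. Where a gene had several, the one with the highest mean was used. No genome build was named, so no coordinates are given.

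Using limma 3.58.1 in R 4.3.3, 1 mean per group (6 groups, 18 arrays) was estimated, with variances moderated by eBayes along a trend in expression. P-values of the 12 comparisons were adjusted by Benjamini-Hochberg over all 22746 probe sets. The fit was also run on simulated data with independent noise for each probe set, and no result here rests on that run. No depth applies to arrays, and 3 replicates limit the precision.

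Same-numbered arrays of different groups had deviations correlated at -0.289 to 0.346 (median 0.019), and differently numbered arrays at -0.377 to 0.416 (median -0.011). By mean correlation, 9 of the 18 arrays were closest to arrays of their own number. The labels state no pairing, so replicate numbers were not taken as pairs. Arrays of 1 group correlated at 0.987 to 0.995 and none was a copy. The alternatives were quantile normalisation, median centring, no trend, array weights, fewer groups in the fit, a filter on dim probe sets, a replicate block and leaving out each array.

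The members, the 9 gene lists and the tests were chosen with earlier results of these data known. Named genes were the members and the 5 genes most correlated with each over all arrays. Candidates for the latter had a highest group mean above 6.61, the median of all values. From each list up to 4 genes past the threshold with the largest osmotic changes in each organ and up to 2 others were named. Some other calmodulin-like genes past the threshold were named, but not all of them. The loci flanking CML38 and AT1G76640 were added after the values were seen.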

Additional observations from a re-analysis of the deposited data

Results flagged for a closer look

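The organs differed in the response of CML38 to mannitol (root minus leaf 1.445) and in that of AT1G76640 (1.04), by a test of the difference itself. They also differed in the step from osmotic plants to day 11 for CML37 (root minus leaf -2.046) and CML38 (-2.95). The first pair of calls was close to the threshold, and the second pair held without any 1 array. Low signal in mock leaves also limits the call of AT1G76640. Groups of 3 arrays are too small for a check of outlying samples.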

How the results depend on the processing

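Over 36 gene and comparison pairs under 25 alternatives, 842 values kept direction and call, 33 lost a call, 15 gained one and 10 turned sign, the last all among values that had not passed. The cause of these changes was not tested. The rises in osmotic roots and the falls at day 11 in roots held throughout. So did the comparisons of roots with leaves within mock and within day 11 plants. The organ difference of the day 11 step also held throughout for CML37 and CML38. No paired design applied, and the fit with a replicate block changed no call (CML38 in osmotic leaves 1.016, adjusted p = 0.026).

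With only the groups compared in the fit, the leaf rises of CML38 (1.016) and AT1G76640 (0.696) were lost. So were the organ differences of the osmotic response (CML38 1.445, AT1G76640 1.04). The day 11 organ difference, meaning the root minus leaf difference of the day 11 response against mock, passed for CML38 (-1.505). Without the trend CML38 lost that osmotic difference (1.445, adjusted p = 0.052). Array weights gave passing values for CML37 in day 11 leaves (0.985), CML38 in the day 11 organ difference (-1.427) and CML37 between osmotic organs (-0.898), and turned CML38 between osmotic organs (-0.087). The day 11 step difference of AT1G76640 passed after quantile normalisation (-1.034), centring (-1.008), without the trend (-1.004) and without dim probe sets (-1.004).

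Leaving out 1 array at a time gave ranges for osmotic leaves of 0.97 to 1.537 (CML37), 0.62 to 1.292 (CML38) and 0.389 to 0.912 (AT1G76640). For day 11 against mock they were 0.463 to 1.273 (CML37) and 1.51 to 1.84 (CML38) in leaves, and -0.169 to 0.062 (CML37) and -0.016 to 0.42 (CML38) in roots. For day 11 against osmotic leaves they were -0.779 to 0.031 (CML37) and 0.432 to 1.104 (CML38). Organ differences of the osmotic response ran 1.097 to 1.841 (CML38) and 0.824 to 1.347 (AT1G76640). That of the day 11 response ran -1.357 to -0.547 (CML37). For AT1G76640 it ran -0.102 to 0.191 and that of the day 11 step -1.311 to -0.788. Osmotic roots against leaves ran -1.039 to -0.472 (CML37) and -0.164 to 0.58 (CML38).

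Over all probe sets, the day 11 against mock leaf counts moved most: 164 higher and 84 lower, against 783 and 732 with array weights and 108 and 19 with only the groups compared. The other counts that these 2 settings moved by more than 1.5 times were osmotic roots lower 3112 against 4670, day 11 against mock roots 830 and 911 against 1584 and 1839, the day 11 organ difference 247 and 273 against 598 and 676 with array weights, and osmotic leaves lower 2734 against 1707, day 11 against osmotic leaves 2077 and 1811 against 932 and 863 with only the groups compared. Leaving out 1 array also moved counts by over 1.5 times: osmotic leaves to 1301 higher and 1747 lower and day 11 against osmotic leaves to 1306 and 1117 (each without osmotic leaf replicate 2), and, at the lowest, day 11 against mock leaves to 73 and 19 (mock leaf replicate 3), day 11 against mock roots to 398 and 392 and the day 11 organ difference to 123 and 127 (day 11 root replicate 2). Smaller moves past 1.5 times came without mock leaf replicate 1, 2 or 3, mock root replicate 1, 2 or 3, day 11 leaf replicate 3 and day 11 root replicate 1 or 2, all in comparisons of day 11 with mock. The shares over all probe sets rest on these counts. Low signal limits CML37 in mock and day 11 roots and AT1G76640 in mock leaves.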
